A study of Mus musculus with 23 samples.

Results

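The genes of MHC class II antigen presentation described here are the 7 named members H2-Aa, H2-Ab1, H2-Eb1, H2-DMa, H2-DMb1, Cd74 and Ciita, chosen by name out of 35576 genes for which reads were summed. All 7 passed the minimum count in every comparison and were tested in each. RNA had been sequenced in 23 libraries from intracranial tumors of GL261 and CT2A, carcinogen-induced murine glioma lines that are syngeneic to C57BL/6 mice. Cells had been injected into the right striatum of female albino C57BL/6 mice aged 7 to 10 weeks, and every line carried a luciferase reporter. Bulk tumors were 4 of GL261-luc2 (100000 implanted cells) and 4 of CT2A-luc (25000 implanted cells), harvested 22 to 24 days later and read as pairs of 150 bases. Sorted samples came from sublines of GL261 and CT2A that also carried a reporter for magnetic selection (200000 implanted cells). Their tumor cells had been pulled out with magnetic beads against that reporter and read as pairs of 37 bases. These were 4 GL261 and 3 CT2A libraries from lines grown as adherent cultures, and 3 GL261 and 5 CT2A libraries labelled as neurosphere cultures. No mouse received a treatment according to the labels, and the labels do not name the mouse behind each library, so p-values measure the spread between libraries. Subline, implanted cell number, sort and read length all differ between bulk and sorted samples and cannot be told apart.

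MHC class II molecules present peptides from the endocytic pathway to CD4+ T cells. Macrophages, dendritic cells and B cells express them constitutively, whereas many other cells, tumor cells included, make them mainly under interferon-γ, which acts through IRF1, among other factors, on the gene of the class II transactivator CIITA. CIITA does not bind DNA itself but joins a complex of RFX, CREB and NF-Y factors that sits on the X and Y boxes shared by class II promoters. In the brain, microglia and infiltrating macrophages are the usual class II-positive cells.

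All 5 histocompatibility chains lie in a stretch of 197134 bases on chromosome 17 of GRCm38, chr17:34119541-34316674. H2-DMa and H2-DMb1 form the editor that loads peptides, H2-Aa and H2-Ab1 the α and β chains of I-A, and H2-Eb1 is the β chain of I-E, whose α chain is not made in C57BL/6 mice. Promoter windows from RefSeq, GRCm38.p6, of 250 bases before and 50 after a gene's start were searched on both strands for the X1 box, given by its matches, and for the Y box ATTGG. The windows matched 4 of the 7 members, H2-Aa, H2-Eb1, H2-DMa and H2-DMb1. Bases 140 to 21 before the start are shown for a classical α chain, a classical β chain and the paralog H2-Eb2, because the levels of these chains are compared below, with matches on the gene's own strand in capitals.
H2-Aa (chr17:34287844-34287963, minus strand): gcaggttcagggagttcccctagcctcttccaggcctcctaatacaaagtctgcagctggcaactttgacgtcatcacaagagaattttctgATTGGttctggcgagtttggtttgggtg
H2-Eb1 (chr17:34305727-34305846, plus strand): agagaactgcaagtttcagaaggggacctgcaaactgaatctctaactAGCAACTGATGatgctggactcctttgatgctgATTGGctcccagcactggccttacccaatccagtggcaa
H2-Eb2 (chr17:34325535-34325654, plus strand): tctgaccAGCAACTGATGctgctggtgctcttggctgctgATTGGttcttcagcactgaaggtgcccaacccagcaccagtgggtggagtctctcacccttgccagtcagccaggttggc

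H2-Eb1 and H2-Eb2 carried the same X1 letters, AGCAACTGATG, and in both the Y box began 33 bases after the first base of X1. H2-DMb1 held AGTAACTGATG with the Y box 34 bases on, and H2-Ob AGCAACAAATG with the Y box 31 bases on. H2-Aa matched the Y box alone, as did the second of the windows of H2-DMa, and H2-Eb1 also had a Y box on the opposite strand 35 bases before its start. Among all 32851 windows, 3.09% held an X1 match and 37.4% the Y letters, and 42 windows (0.128%) held X1 followed by Y on one strand within 50 bases, a distance chosen after these promoters had been read. Those 42 included H2-Eb1, H2-DMb1, H2-Eb2 and H2-Ob. A match is a description of letters and not a mapped site, and a missing match does not show that a box is absent.

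Several features of the libraries bear on these genes. Titles of the 5 CT2A neurosphere libraries name GL261, but the label of the cell line and the description give CT2A, which was used here. Hoxc10, a homeobox gene, was at 61.2 to 83.4 CPM (read counts scaled to library size, with TMM factors) in those 5 and at 63.0 to 73.6 CPM in adherent CT2A cells. It was at 3.16 to 8.64 CPM in the GL261 sorted libraries of both cultures, and at 0 to 0.026 CPM in bulk GL261. Whether the low Hoxc10 level of sorted GL261 libraries belongs to the subline or came from CT2A material was not tested, and this bears on every comparison that uses them. Sorted libraries held macrophage markers. Each of the 13 had reads in every group, and their summed level ranged from 267 to 8501 CPM in sorted libraries. Among adherent GL261 cells, replicate 81 stood apart with a marker sum of 267 CPM against 639 to 1155 CPM in the other 3. Among CT2A neurosphere cells, replicate 59 stood apart at 3108 CPM against 575 to 1380 CPM in the other 4. Estimated reads per library were 34622622 to 42608400 in bulk GL261 and 7395846 to 15263587 in the other 19.

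Every member had the same order of group means on the CPM scale, with GL261 neurosphere cells first, then adherent sorted GL261 cells, then bulk GL261 tumors, and the 3 CT2A groups below. The order held for 7 of 7 members in CPM and in TPM (the abundance scaled by transcript length). H2-Aa stood for the classical chains. Its levels in GL261 were 2343, 1875 and 1331 CPM in neurosphere cells, 761, 718, 638 and 709 CPM in adherent sorted cells and 198, 186, 140.0 and 339 CPM in bulk tumors. In CT2A they were 61.8, 127, 371, 166 and 123 CPM in neurosphere cells, 155, 155 and 294 CPM in adherent sorted cells and 66.4, 136, 196 and 132 CPM in bulk tumors. The 3 GL261 groups did not overlap each other, and the 3 CT2A groups all overlapped.

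**Figure D1:**
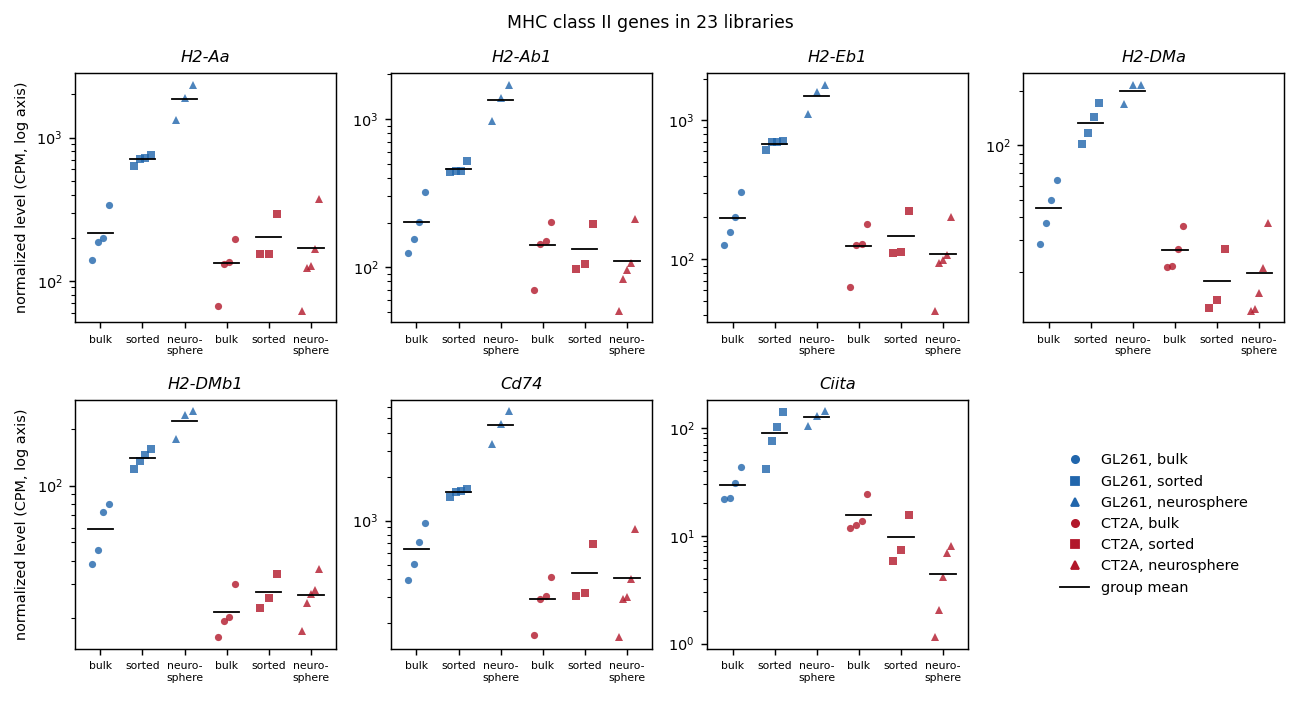
Normalized levels of the 7 genes in each library, in CPM on a log axis, by line and sample type (each panel has its own scale); points are libraries and bars are group means. In each panel the GL261 sorted and neurosphere libraries stand above every CT2A library of the same sample type, and among bulk tumors only H2-DMb1 separates the lines.

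Cd74, the invariant chain that escorts class II through the cell (chr18:60803848-60812652, GRCm38), was the most abundant member per length in every group, with 6179 ± 1271 TPM (SD, n = 3) in GL261 neurosphere cells, 2259 ± 246 TPM (SD, n = 4) in adherent GL261 cells and 503 ± 168 TPM (SD, n = 4) in bulk CT2A tumors. It made up 38.0 to 50.8% of the members' summed CPM in single libraries. Per length, H2-Aa was at 1.39 ± 0.282 (SD, n = 23) times H2-Ab1 and H2-Eb1 at 1.20 ± 0.254 (SD, n = 23) times H2-Ab1. The peptide editor was rarer, with H2-DMb1 at 0.199 ± 0.0611 (SD, n = 23) times H2-Ab1. Ciita, the transactivator (chr16:10480059-10528418), was the rarest at 40.3 ± 8.16 TPM (SD, n = 3) in GL261 neurosphere cells and 1.24 ± 0.839 TPM (SD, n = 5) in CT2A neurosphere cells.

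The RNA ratio of the α to the β chain of I-A moved little beside their levels. The TPM ratio of H2-Aa to H2-Ab1 stayed between 0.933 and 1.92 over all 23 libraries, although H2-Aa itself ran from 61.8 to 2343 CPM. The ratio was lower in bulk tumors, 1.03 to 1.28 in GL261 and 0.933 to 1.02 in CT2A, than in the sorted libraries, where it was above 1.28 in each and reached 1.92. Read length differed between these samples, and its part in that difference was not tested. Cd74 was at 1.80 to 2.21 times H2-Ab1 in bulk CT2A tumors and at 2.77 to 4.03 times H2-Ab1 in the other 19 libraries, so bulk CT2A did not overlap them. H2-Eb1 was at 1.54 to 1.82 times H2-Ab1 in adherent GL261 cells and at 1.17 to 1.25 times in adherent CT2A cells, without overlap. H2-DMa ran from 0.574 to 2.08 times H2-DMb1 over all 23 libraries.

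The first question was whether the lines differed in class II genes in whole tumors. Bulk CT2A tumors had lower means than bulk GL261 tumors for all 7 members, but 1 of 7 passed the test (adjusted p under 0.05), against a background of 11.9% of 16434 genes called lower and 23.4% called in either direction. That gene was H2-DMb1, the β chain of the peptide editor, with 15.7, 20.1, 30.3 and 19.1 CPM in CT2A and 72.4, 38.4, 45.6 and 79.7 CPM in GL261. The groups did not overlap, and its log2 fold change was -1.43 (SE 0.33, adjusted p = 0.0153 by the quasi-likelihood test of edgeR, Benjamini-Hochberg). Libraries did not overlap for 19.0% of all genes tested in that direction.

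Cd74 followed at a log2 fold change of -1.09 (SE 0.37, adjusted p = 0.0646, edgeR), from 394, 504, 720.1 and 962 CPM in GL261 to 165, 289, 304 and 411 CPM in CT2A. The highest CT2A library overlapped the lowest GL261 library. Ciita was at -0.87 (SE 0.33, adjusted p = 0.0940), H2-DMa at -0.71 (SE 0.30, adjusted p = 0.128) and the classical chains at -0.45 to -0.64 (adjusted p = 0.266 to 0.477). Without GL261 replicate 412, Cd74 (adjusted p = 0.0416) and Ciita (adjusted p = 0.0469) passed, and without CT2A replicate 47, Ciita passed (adjusted p = 0.0416). The median over members was -0.71 beside -0.048 over all genes tested. Of 13 macrophage markers 0 passed in bulk by edgeR and 1 had an unadjusted p under 0.05, with a median of 0.16. Of 9 microglia markers 1 was lower in CT2A and 3 had an unadjusted p under 0.05 (median -0.26). Of 9 T cell markers 1 was lower (median -0.064), and of 9 dendritic cell markers 0 passed (median 0.34). In bulk tissue, fewer cells of a type and less RNA per cell cannot be told apart.

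**Figure D2:**
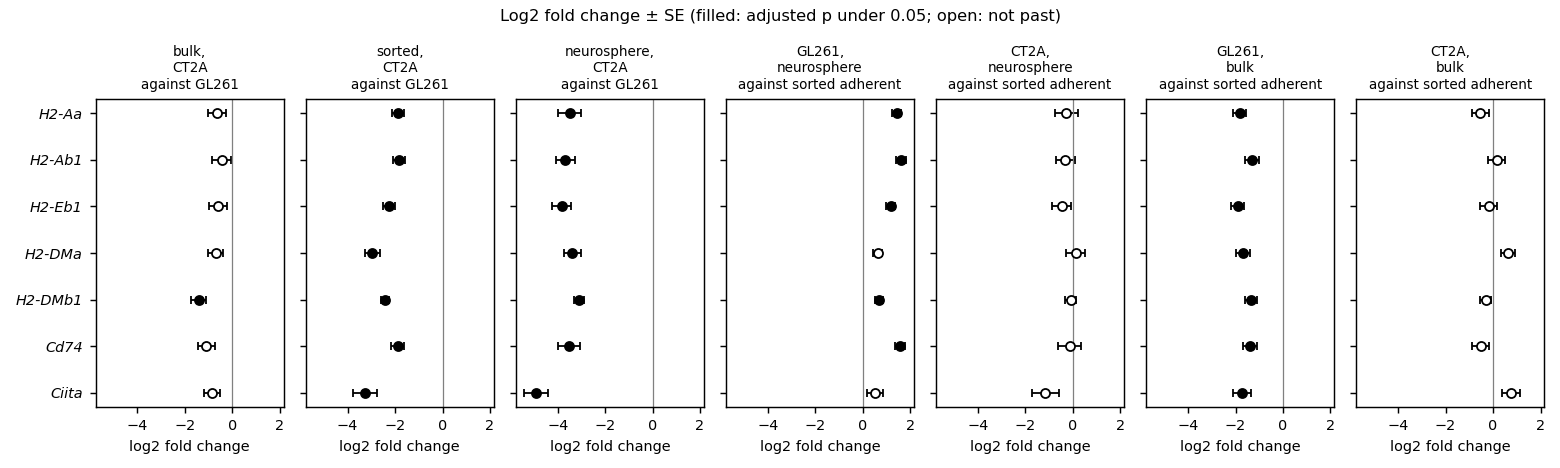
Log2 fold changes (horizontal axis) of the 7 genes in 7 comparisons, with bars of 1 SE; filled points passed an adjusted p under 0.05 and open points did not. All 7 are filled and below 0 for CT2A against GL261 in sorted and neurosphere cells, and none is filled for either comparison within CT2A.

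In sorted cells of adherent lines, CT2A was lower than GL261 for all 7 members, against 26.8% of 13789 genes called lower and 50.8% called in either direction. None of the 7 overlapped between groups, against 28.3% of genes without overlap in that direction. Ciita had the largest difference among members, from 41.2, 103, 75.5 and 139 CPM in GL261 to 7.43, 5.88 and 15.6 CPM in CT2A. Its log2 fold change was -3.27 (SE 0.50, adjusted p = 0.000786). H2-DMa, the other chain of the peptide editor, fell from 101 to 170.1 CPM in GL261 to 12.6 to 26.7 CPM in CT2A, a log2 fold change of -2.95 (SE 0.31, adjusted p = 0.000104). H2-DMb1 was at -2.41 (SE 0.17) and H2-Eb1 at -2.26 (SE 0.26).

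H2-Aa, H2-Ab1 and Cd74 had the smallest differences, with log2 fold changes of -1.87, -1.85 and -1.89. Cd74 had 1571, 1603, 1442 and 1637 CPM in GL261 and 323, 308 and 688 CPM in CT2A. CT2A replicate 71 was the highest CT2A library for every member, and it also had the highest macrophage marker sum of its group, 1514 CPM against 784 CPM in the lowest. The median over members was -2.26 beside -0.015 over all genes tested. Of the 13 macrophage markers 0 passed as higher and 1 as lower, with a median of 0.43, and of 9 microglia markers 2 were higher. Some other lists fell with the members, with 4 of 7 oligodendrocyte markers lower (median -2.50), 4 of 8 endothelial markers (median -1.39) and 2 of 4 T cell markers tested (median -1.97). Others did not fall as a list. Of 3 dendritic cell markers tested 0 passed (median 0.28), and of 7 astrocyte markers 2 were lower (median -0.16). Of 8 neuron markers tested 1 was higher and 2 were lower (median 0.86). T cell markers summed to 14.1 to 21.8 CPM in GL261 and to 4.27 to 9.42 CPM in CT2A. The part of these cells in the result was not tested.

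Neurosphere cells showed the widest gap between lines. CT2A was lower for all 7 members, against 29.6% of 13733 genes called lower and 59.6% in either direction. No member overlapped between the lines, against 27.9% of genes in that direction. Ciita was at 104, 144 and 129 CPM in GL261 and at 2.04, 6.85, 1.15, 4.16 and 7.98 CPM in CT2A, a log2 fold change of -4.92 (SE 0.49, adjusted p = 2.74e-05). Cd74 was at 5638, 4601 and 3326 CPM in GL261 and at 159.6, 302, 883, 399 and 294 CPM in CT2A, a log2 fold change of -3.52 (SE 0.48, adjusted p = 0.000184). The other 5 members lay between -3.11 and -3.83.

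The macrophage markers moved with the members there. All 13 were lower in CT2A neurosphere cells (median log2 fold change -2.27). Their sums were 575 to 3108 CPM in CT2A and 5256 to 8501 CPM in GL261. The median over class II members was -3.52 beside 0.030 over all genes tested. Markers of other cells were lower in CT2A too, 6 of 6 astrocyte markers tested (median -2.42), 4 of 4 T cell markers tested (median -2.91), 6 of 8 endothelial markers (median -2.50) and 5 of 7 oligodendrocyte markers (median -3.38). Of 7 neuron markers tested 2 were higher and 2 lower (median -1.43), and of 3 dendritic cell markers tested 1 was higher and 2 lower (median -3.13). T cell markers summed to 20.1 to 38.7 CPM in GL261 and to 2.77 to 6.72 CPM in CT2A. The part of any of these cells in this result was not tested.

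Within GL261, neurosphere cells were higher than adherent sorted cells for 5 of 7 members, against 7.58% of 13675 genes called higher and 8.53% in either direction. Cd74 (log2 fold change 1.57, SE 0.20, adjusted p = 0.00537), H2-Ab1 (1.59, SE 0.21), H2-Aa (1.43, SE 0.20) and H2-Eb1 (1.18, SE 0.19) rose, and H2-DMb1 rose by less (0.69, SE 0.16, adjusted p = 0.0368). H2-DMa was at 0.63 (adjusted p = 0.0969). Ciita was at 0.52 with an interval of -0.30 to 1.33 (95%, adjusted p = 0.463), and its groups overlapped, as did those of H2-DMa. The other 5 did not overlap, against 14.8% of genes without overlap in that direction.

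The H2-DMb1 call was lost without any one of adherent replicates 82 (adjusted p = 0.0822), 83 (0.0941) and 84 (0.109), or neurosphere replicates 89 (0.164) and 90 (0.152). H2-DMa passed without adherent replicate 81 (adjusted p = 0.0126). All 13 macrophage markers rose here too, with a median of 3.03 beside 1.18 for the class II members and -0.035 for all genes tested. Of 9 microglia markers 4 rose (median 2.31), and of 3 dendritic cell markers tested 2 rose (median 2.69), against 7.58% of all genes called higher. The part of these cells in the members' rise was not tested. Per unit of summed macrophage marker CPM, the summed members stood at 1.37 to 1.83 in GL261 neurosphere cells and at 3.05 to 14.4 in adherent GL261 cells, without overlap. This comparison shares the adherent GL261 libraries with the comparison of sorted lines and the neurosphere GL261 libraries with the comparison of neurosphere lines.

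**Figure D3:**
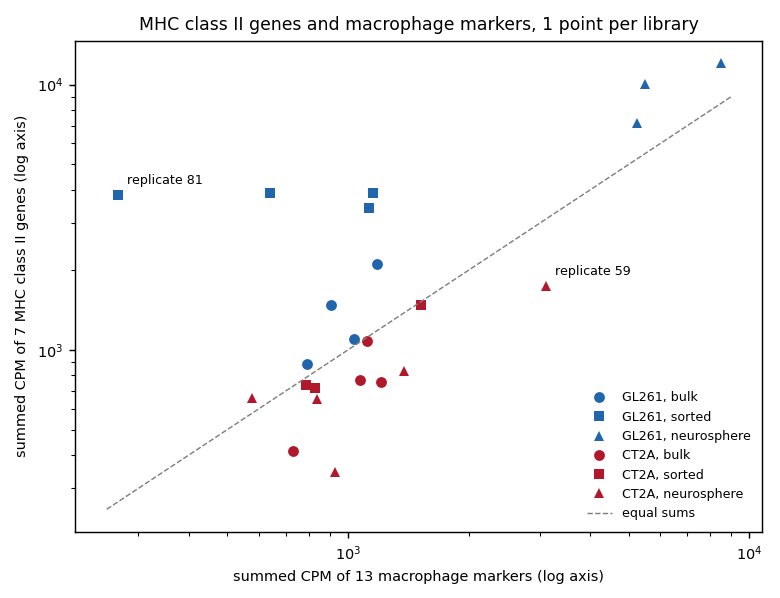
Summed CPM of the 7 class II genes (vertical, log axis) against summed CPM of 13 macrophage markers (horizontal, log axis), 1 point per library; the dashed line marks equal sums. Adherent sorted GL261 libraries lie at 3430 to 3915 CPM of class II genes and at marker sums of 267 to 1155 CPM, and the GL261 neurosphere libraries lie highest on both axes.

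Among adherent GL261 libraries, replicate 81 had the lowest macrophage marker sum of all 23 libraries, 267 CPM, and Csf1r, the receptor of macrophage growth factor, was at 23.2 CPM there and at 178, 170.1 and 87.0 CPM in the others. Its place among the 4 libraries depended on the scale. Its summed class II level was 3841 CPM beside 3430 to 3915 CPM in the other 3, whereas in TPM it was the lowest, 4972 beside 5490 to 6156. H2-Aa was highest in replicate 81 in CPM (761) and lowest in TPM (1043), and H2-Ab1 was lowest on both scales. Without this library, 7 members were called lower in sorted CT2A than in sorted GL261 cells. In that run 8922 of 13809 genes were called in either direction, against 7000 of 13789 with the library. In CT2A the ratio of summed members to summed markers was 0.863 to 0.975 in adherent and 0.374 to 1.14 in neurosphere cells. The part of macrophage RNA in these levels was not tested.

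Within CT2A, 0 of 7 members passed between neurosphere and adherent cells, by edgeR or by DESeq2, and 0 had an unadjusted p under 0.05. In that comparison 0.167% of 13142 genes were called. The groups overlapped for all 7 members, where 12.6% of genes had no overlap. The median over members was -0.28 beside 0.018 over all genes tested. Intervals were wide, at -1.24 to 0.95 for Cd74 and -2.45 to 0.13 for Ciita on the log2 scale (95%), so changes within those ranges were not excluded. CT2A neurosphere replicate 59 had the highest macrophage marker sum of its group and the highest levels of the 6 members other than Ciita, such as 371 CPM of H2-Aa. Its Ciita level was the lowest of all 23 libraries, 1.15 CPM.

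Bulk tumors were compared with adherent sorted cells in each line. In GL261, bulk tumors were lower for all 7 members, against 14.4% of 16265 genes called lower and 34.5% in either direction. H2-Eb1 had 127 to 305 CPM in bulk and 608 to 712 CPM in sorted cells, a log2 fold change of -1.90 (SE 0.27, adjusted p = 0.00210). The other members lay between -1.31 and -1.83, with adjusted p = 0.00221 to 0.00926. For 6 of 7 the libraries did not overlap, against 14.1% of genes in that direction, and Ciita was the exception, at 21.7 to 43.2 CPM in bulk and 41.2 to 139 CPM in sorted cells. The median over members was -1.68 beside 0.012 over all genes, while the macrophage list had 1 of 13 lower and a median of 0.23. Markers of brain tissue were higher in bulk GL261, 8 of 9 for neurons (median 5.12), 6 of 7 for astrocytes (median 3.37), 5 of 7 for oligodendrocytes (median 1.91) and 4 of 9 for microglia (median 1.33). Their part in the members' lower level was not tested.

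In CT2A, 0 of 7 members passed between bulk and sorted cells by edgeR or DESeq2 and 0 had an unadjusted p under 0.05, where 49.9% of 14701 genes were called. Log2 fold changes ran from -0.54 for H2-Aa to 0.75 for Ciita (interval -0.15 to 1.65, adjusted p = 0.142). Without sorted replicate 71, H2-DMa (1.03, adjusted p = 0.0174) and Ciita (1.27, adjusted p = 0.0270) passed as higher in bulk. The median over members was -0.19 beside 0.0047 over all genes tested. All 7 overlapped between the groups, where 56.4% of genes did not. Markers of neurons (9 of 9), astrocytes (7 of 7) and oligodendrocytes (7 of 7) were higher in bulk CT2A. So were 7 of 9 T cell markers (median 2.24) and 6 of 8 endothelial markers (median 1.33). Of 8 dendritic cell markers tested 4 were higher and 1 lower (median 1.38). Of 9 microglia markers 1 was higher and 1 lower, and of 13 macrophage markers 2 were lower (median 0.013). The part of these cells was not tested. Both bulk comparisons share libraries with the comparisons of lines.

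Whether the line difference itself differed was tested as an interaction over 4 groups. Between bulk and sorted samples, 3 of 7 members passed, all with a positive interaction, which for them was a line difference nearer 0 in bulk. Of 15845 genes, 5.80% were called with a positive interaction, whichever line was higher, and 13.5% with either sign. The 3 members were H2-DMa (2.15, SE 0.43, adjusted p = 0.00473), Ciita (2.31, SE 0.58, adjusted p = 0.0171) and H2-Eb1 (1.55, SE 0.47, adjusted p = 0.0418). H2-DMa passed without every single library in turn. Ciita missed the threshold without sorted CT2A replicate 69 (adjusted p = 0.0544) or 70 (0.0548), and H2-Eb1 did so without 11 of the 15 libraries (adjusted p = 0.0544 to 0.115). H2-Ab1 passed without bulk GL261 replicate 417 (adjusted p = 0.0336), bulk CT2A replicate 39 (0.0360) or sorted CT2A replicate 71 (0.0481).

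Between neurosphere and adherent cells, 1 of 7 members passed, H2-Ab1, with a line difference farther from 0 in neurosphere cells (-1.87, SE 0.51, adjusted p = 0.0398). In that test 5.70% of 13824 genes were called with a negative interaction, whichever line was higher, and 6.67% with either sign. H2-Ab1 missed the threshold without 9 of the 15 libraries, 3 of them adherent GL261 (81, 83 and 84), 1 adherent CT2A (71), 2 neurosphere GL261 (89 and 90) and 3 neurosphere CT2A (57, 58 and 61), at adjusted p = 0.0530 to 0.128. Without neurosphere CT2A replicate 59, 5 members passed, adding H2-Aa (-2.17, adjusted p = 0.00661), Cd74 (-2.17, adjusted p = 0.00781), H2-Eb1 (-1.97, adjusted p = 0.0101) and H2-DMb1 (-0.89, adjusted p = 0.0480). In that run 1267 of 13812 genes were called in either direction, against 922 of 13824 with every library. Of the 13 macrophage markers 6 passed in the same direction in the test over all 15 libraries.

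Ciita differed from its target genes in how it varied among libraries of a group. After subtraction of group means, its Pearson correlation with the mean log2(CPM + 1) of H2-Aa, H2-Ab1, H2-Eb1 and Cd74 was 0.17 over 23 libraries, while H2-DMa and H2-DMb1 stood at 0.86 and 0.88 with the same mean. Without that subtraction Ciita stood at 0.82, beside 0.95 for H2-DMa and 0.96 for H2-DMb1. The points share library preparation and reads across genes, and the correlations are descriptions only. Ciita had 15 to 144 estimated reads per library in sorted CT2A cells of both cultures, and the part of counting noise in its low correlation was not tested. In CT2A neurosphere cells replicate 59 had the lowest Ciita (1.15 CPM, 15 estimated reads) and the highest H2-Aa (371 CPM), in TPM as in CPM.

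Relative to Cd74, Ciita was at 0.00586 to 0.0211 times its TPM in adherent GL261 cells, 0.00383 to 0.00503 in adherent CT2A cells and 0.000256 to 0.00571 in CT2A neurosphere cells. The adherent groups did not overlap. In GL261 neurosphere cells the ratio was 0.00430 to 0.00862, which overlapped CT2A neurosphere cells. In bulk the ratios overlapped, 0.00894 to 0.0112 in GL261 and 0.00786 to 0.0166 in CT2A.

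Ciita is transcribed from alternative promoters, of which the most upstream is known from myeloid cells, another from B cells and the most downstream from cells exposed to interferon-γ. Its 8 annotated transcripts (GENCODE, GRCm38) began in 3 places on the plus strand of chromosome 16, at 10480059 to 10480164, 10488178 to 10488279 and 10489746 to 10489783. The annotation does not name promoters, so transcripts are given by their start. The middle start took 54.8 to 100% of Ciita reads in every library, but its main transcript Ciita-201 alone extends to 10528418 while the others end by 10526426, so reads at the far end could be assigned to no other transcript.

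**Figure D4:**
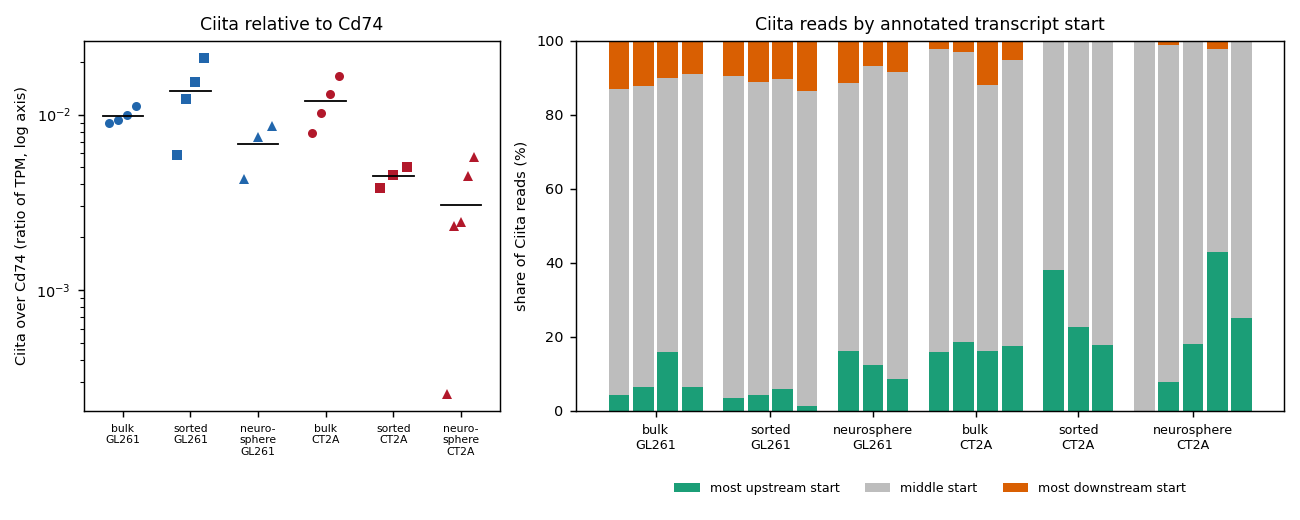
Left, ratio of Ciita to Cd74 in TPM per library on a log axis, with group means as bars; right, share of estimated Ciita reads (%) by annotated transcript start in each library. The most downstream start holds 6.73 to 13.5% of reads in GL261 libraries and 0% in adherent CT2A cells.

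The most downstream start separated the lines in sorted cells. It held 36.6 to 200 estimated reads per library in adherent GL261 cells (9.59 to 13.5% of Ciita reads) and 84.0 to 97.8 reads in GL261 neurosphere cells (6.73 to 11.4%). In adherent CT2A cells it held 0 of 255 summed Ciita reads, which allows a share of up to 1.18% by 3 counts, for counting error only. In CT2A neurosphere cells it held 2 of 227 summed reads. Bulk tumors overlapped, at 9.09 to 13.2% in GL261 and 2.35 to 12.0% in CT2A. The most upstream start held 1.34 to 5.87% of reads in adherent GL261 cells and 17.8 to 38.2% in adherent CT2A cells, the latter from 11.5 to 25.6 reads per library. In neurosphere cells the lines overlapped for this start, at 8.57 to 16.2% in GL261 and 0 to 43.0% in CT2A. These shares rest on estimated assignment of reads and were given no test.

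Cd74 has a shorter and a longer main coding transcript, which differ by 1 exon. The shorter, Cd74-201 with 8 exons, took 70.0 to 92.1% of Cd74 reads in single libraries. The longer, Cd74-202 with 9 exons, took 11.9 to 18.8% in bulk GL261 and 20.7 to 27.6% in bulk CT2A, without overlap. In adherent sorted cells it took 7.17 to 17.9% in GL261 and 22.9 to 25.9% in CT2A, also without overlap, and in neurosphere cells the lines overlapped at 20.8 to 23.9% and 10.5 to 29.0%. These shares are descriptions from read assignment.

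Other genes of the pathway were counted from lists written by hand. Of 6 further class II chains, 2 were tested in sorted cells and both were lower in CT2A, and 4 were tested in neurosphere cells and all 4 were lower. Among all genes tested, 26.8% were called lower in sorted and 29.6% in neurosphere cells. H2-Eb2, a β chain paralog with the same X1 letters as H2-Eb1, had 51.0, 55.2, 49.8 and 86.0 CPM in adherent GL261 cells and 0.124, 0 and 0.108 CPM in adherent CT2A cells. Over the 12 CT2A libraries it had at most 0.559 CPM, and the groups of the lines did not overlap in any sample type. Its fitted log2 fold change was -4.17 in bulk (SE 0.69, adjusted p = 0.00389). H2-Eb2 and H2-Eb1, like H2-DMb2 and H2-DMb1, are paralogs among which reads could be divided wrongly, so the levels of the rarer copies are uncertain.

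**Figure D5:**
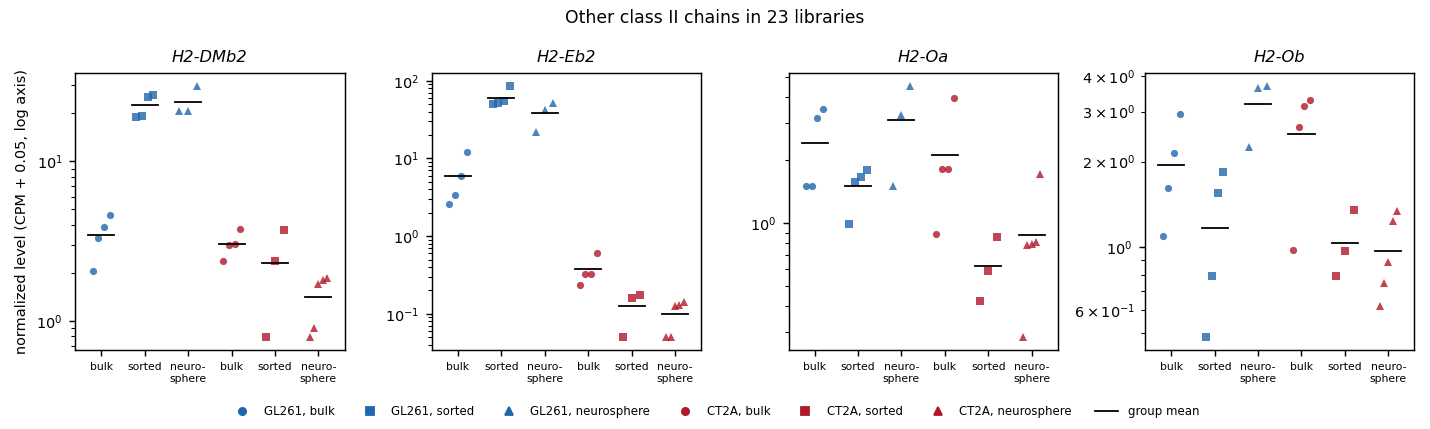
Normalized levels of 4 further class II chains per library, in CPM + 0.05 on a log axis with a scale of its own in each panel; points are libraries and bars are group means. H2-Eb2 stands at 2.52 to 86.0 CPM in GL261 and at 0 to 0.559 CPM in CT2A, while H2-Oa and H2-Ob stay under 5 CPM in every group.

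H2-DMb2, a second β chain of the peptide editor, had 18.8 to 26.0 CPM in adherent GL261 cells and 0.743 to 3.68 CPM in adherent CT2A cells (log2 fold change -3.35, SE 0.44, adjusted p = 0.000355). In bulk tumors it was at 2.00 to 4.55 CPM in GL261 and 2.33 to 3.73 CPM in CT2A (adjusted p = 0.851). H2-Oa and H2-Ob, the chains that restrain the peptide editor and are known from B cells, had at most 4.49 CPM in any library. H2-Oa was higher in bulk than in sorted CT2A cells (log2 fold change 1.87, SE 0.61, adjusted p = 0.0324), and H2-Ob was at 1.35 there (adjusted p = 0.0504). Among B cell markers, Pax5 was at 14.2 to 16.3 CPM in adherent GL261 cells and at most 0.124 CPM in adherent CT2A cells. The other 5 markers of that list summed to at least 0.758 CPM in adherent GL261 cells and to 1.38 to 3.25 CPM in adherent CT2A cells, where all but the lowest library lay above every GL261 library.

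The enhanceosome factors did not move as a group. Of 7 tested in sorted cells, Nfya (log2 fold change 1.20) and Creb1 (0.73) were higher in CT2A, Rfx5 was lower (-1.13, SE 0.19, adjusted p = 0.00144) and 4 did not pass. Rfx5, the DNA-binding subunit of RFX, was also lower in CT2A neurosphere cells (-1.09, SE 0.18, adjusted p = 0.000438), while in bulk it was at -0.41 (adjusted p = 0.0922). The list's median was 0.24 in sorted and 0.30 in neurosphere cells. Of all genes tested, 50.8% were called in either direction in sorted cells and 59.6% in neurosphere cells. Within GL261, 0 of 7 passed between neurosphere and adherent cells by edgeR, and 0 had an unadjusted p under 0.05.

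Of 9 genes on the input side of interferon-γ, 3 were higher and 4 lower in sorted CT2A cells, and 1 was higher and 5 lower in neurosphere cells. By comparison, 50.8% of all genes tested were called in either direction in sorted cells and 59.6% in neurosphere cells. Receptor chain Ifngr2 (log2 fold change 1.38) and kinase Jak1 (1.17) were higher in sorted CT2A cells, whereas Socs1 (-2.07), a feedback inhibitor, and Irf1 (-1.46) were lower, with adjusted p = 4.02e-05 to 0.00131 over these 4. Between bulk CT2A tumors and sorted CT2A cells the list went both ways. Of 8 tested, 3 were higher and 2 lower in bulk (median -0.0028), where 49.9% of all genes tested were called. Irf1 (0.84, adjusted p = 0.0180) and Socs1 (1.06, adjusted p = 0.0126) were among those higher in bulk. Within GL261, 2 of 9 were higher in neurosphere than in adherent cells, against 7.58% of all genes tested. These were the receptor chains Ifngr1 (1.27, adjusted p = 0.0247) and Ifngr2 (1.26, adjusted p = 0.00402), while Irf1 was at 0.23 between neurosphere and adherent cells (adjusted p = 0.580).

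Genes of class II peptide processing and turnover moved most in the comparisons with neurosphere GL261 cells. Of 7 tested, which include Ctss, the cathepsin that degrades the invariant chain, and Lgmn, an asparaginyl endopeptidase, all 7 rose in GL261 neurosphere against adherent cells with a median of 2.78. There 7.58% of all genes tested were called higher, and all 13 macrophage markers rose with a median of 3.03. The part of macrophages in this rise was not tested. Ctss was at 2.87 (SE 0.45, adjusted p = 0.00991) and Cd83, which stabilises class II at the surface, at 3.55 (SE 0.46, adjusted p = 0.00597). In CT2A against GL261, 6 of 7 were lower in neurosphere cells, 1 was higher in adherent sorted cells (Ctsl, 0.51, adjusted p = 0.0212) and 0 passed in bulk by edgeR, with 0 at an unadjusted p under 0.05. Among all genes tested, 29.6% were called lower in neurosphere cells and 50.8% in either direction in adherent sorted cells.

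Class I presentation genes, which in part lie in the same region and answer to interferon-γ, were counted beside them. Of 8 tested in CT2A against GL261, 4 were lower in bulk, 6 in adherent sorted and 7 in neurosphere cells, and 0 were higher. The shares of all genes called lower were 11.9, 26.8 and 29.6% in the same order. Tap2, a subunit of the peptide transporter, was at -1.50 in bulk (SE 0.33, adjusted p = 0.0130) and at -2.26 in adherent cells (SE 0.15, adjusted p = 1.04e-05). Psmb9, an immunoproteasome subunit, was at -1.53 in bulk (SE 0.35, adjusted p = 0.0160) and -2.34 in adherent cells (SE 0.19, adjusted p = 2.88e-05). Between neurosphere and adherent GL261 cells, where 5 class II members rose, 0 of the 8 passed by edgeR and 0 had an unadjusted p under 0.05, with a median of -0.0024.

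Dendritic cell markers summed to 312 to 437 CPM in GL261 neurosphere cells and to 29.4 to 138 CPM in the other 20 libraries. The mean log2(CPM + 1) over the 9 dendritic cell markers did not stand highest there, at 2.00 to 2.14 beside 2.15 to 2.33 in bulk GL261 and 1.94 to 2.46 in bulk CT2A. T cell markers summed to 29.3 to 48.9 CPM in bulk GL261 and up to 35.7 CPM in bulk CT2A. The 10 genes whose pattern over 23 libraries was most like the mean of H2-Aa, H2-Ab1, H2-Eb1 and Cd74, out of 15459 genes with a mean normalized count above 10, were Ehd4, Arhgef6, Dram1, Pon3, Lacc1, Man2b2, Cmtm6, Naglu, Zfp992 and Il16. Their Pearson correlations on log2(CPM + 1) were 0.929 to 0.953. After subtraction of group means the 10 most like genes included Smagp, Rhog, Pstpip1, Ifnar2, Lgals3bp, Grn, Cln8, Sh3bgrl3 and Gpsm3, at 0.803 to 0.890, and no gene stood in both lists.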

How the data were processed

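RNA of 23 tumor libraries was analysed in 6 groups. The authors ran Salmon (genome mm10, GRCm38), and the deposited tables hold estimated counts per transcript, not normalized, with TPM and effective length. For bulk and adherent sorted libraries they also deposited expected counts per gene (STAR 2.7.7a, RSEM 1.3.3). The labels give 1 library kit for all samples, the methods of the study a directional kit for sorted cells.

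Estimated counts of 116546 transcripts were summed over 35576 genes and rounded; transcripts without a gene held 0.0413 to 0.152% of reads. Genes whose TMM-normalized count averaged over 10 were tested by the edgeR quasi-likelihood method (edgeR 4.0.16, R 4.3.3; robust, threshold 0.05 after Benjamini-Hochberg adjustment over all genes tested). Standard errors came from the log2 fold change and F statistic, and 95% intervals are unadjusted. Depth was 7395846 to 42608400 counts. No replicate pair agreed within sampling noise. Alternatives were DESeq2 1.42.0, its size factors, no minimum count, the filterByExpr minimum, effective length offsets, RSEM counts, 1 fit of 6 groups, a minimum log2 fold change of 1, TPM instead of CPM, and leaving out each library. Fits were tested on simulated data.

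The members and lists were chosen with earlier results of these data known. Named were every member, up to 3 higher and 3 lower genes per other list, and the 10 genes most like the classical chains; other genes named were picked after their values were seen. Some genes of the lists are not reported here.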

Additional observations from a re-analysis of the deposited data

Results flagged for a closer look

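Values of the 7 members were screened for single libraries far from the rest of their group, in 28 groups of 4 or 5 values, of which about 1 in 20 is picked by chance. In all 3 were picked. H2-Ab1 in adherent GL261 replicate 82 was at 518 CPM, above 437 to 443 CPM in the other 3. H2-Eb1 in adherent GL261 replicate 83 was at 608 CPM, below 696 to 712 CPM in the others. Ciita in bulk CT2A replicate 47 was at 24.2 CPM, above 11.8 to 13.8 CPM in the others.

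The line difference differed between sample types for 4 members by the interaction test of edgeR. Between bulk and sorted samples the interaction was 1.55 for H2-Eb1, 2.15 for H2-DMa and 2.31 for Ciita on the log2 scale (adjusted p = 0.0418, 0.00473 and 0.0171). Between neurosphere and adherent cells it was -1.87 for H2-Ab1 (adjusted p = 0.0398). Macrophage markers moved in the second of these, 6 of 13 lower with a median of -2.62, and 1 of 13 moved in the first, higher, with a median of -0.40. Their part in these results was not tested.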

How the results depend on the processing

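No paired analysis was possible because the groups share no replicate numbers. Of 994 alternative values for single members, 925 kept their direction and side of the threshold, 34 lost the call, 22 gained it and 13 changed sign. All 7 members were called in every alternative run for CT2A against GL261 in sorted and neurosphere cells and for bulk against sorted GL261 tumors, and 7 of 7 were highest in GL261 neurosphere cells in CPM and TPM.

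In bulk CT2A against GL261, 3 members were called by DESeq2, 2 with no minimum count, and 1 to 3 with a library left out. The main run called 3839 of 16434 genes there, DESeq2 4930 of 16434, and the run with no minimum count 3651 of 24956. With a library left out, 2474 to 4777 genes were called. In GL261 neurosphere against adherent cells 3 were called with 6 groups in 1 fit. That fit called 1719 of 15466 genes, against 1167 of 13675 in the main run. In bulk against sorted CT2A, 0 to 2 were called with a library left out, where 5456 to 7876 genes were called. In the interaction of bulk and sorted samples the range was 1 to 4. In that of neurosphere and adherent cells it was 0 to 5, with 4 by DESeq2 and 0 with no minimum count or with 6 groups in 1 fit. For the latter interaction DESeq2 called 1541 of 13824 genes. The run with no minimum count called 733 of 24325, and that with 6 groups 944 of 15466. The cause was not tested.

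All sign changes were among CT2A values that did not pass, with a library left out. Between neurosphere and adherent cells H2-Aa then ran from -0.77 to 0.072, H2-Ab1 from -0.68 to 0.048, H2-DMa from -0.23 to 0.51, H2-DMb1 from -0.22 to 0.074 and Cd74 from -0.62 to 0.31. Between bulk and sorted cells H2-Ab1 ran from -0.065 to 0.52 and H2-Eb1 from -0.41 to 0.20. Ciita in CT2A sorted cells rests on 255 reads over 3 adherent and 227 over 5 neurosphere libraries, so its start shares there are imprecise.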
